A study of Mus musculus with 5 samples.

Results

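Macrophage genes were followed in total RNA of forelimb buds from mouse embryos of 2 ages. The group held 31 genes of macrophages and the wider myeloid lineage, chosen by name, among 23284 gene symbols counted in each of 5 libraries. All 31 were found, Spi1 under its older symbol Sfpi1, and Emr1 (the F4/80 antigen) under that older name. The E10.5 group was 1 library of whole forelimb bud with the strain label CD1. The E11.5 groups came from the distal forelimb of embryos on a mixed C57BL/6 and CD1 background, with 2 wild-type libraries and 2 libraries of Hoxa13-/-;Hoxd13-/- embryos, called mutant here. The mutant alleles are carried in all tissues of the embryo, macrophages included, and are insertions, of a neomycin cassette into the coding sequence of Hoxa13 and of lacZ into exon 1 of Hoxd13. RNA was pooled from dissected limbs, and the 2 libraries of a genotype came from separate pools. Stage, dissected part and strain label all differed between E10.5 and E11.5 and cannot be told apart.

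Macrophages are the first leukocytes to settle in embryonic tissues. They derive from yolk sac and fetal liver progenitors, depend on the transcription factor PU.1 (encoded by Spi1) and on the receptor of colony-stimulating factor 1 (Csf1r), and clear dying cells, which in the limb include the cells that die between the digits. Their genes serve in sensing and engulfment (scavenger and Fc receptors), in tagging of targets (complement C1q), in digestion (lysozyme and cathepsins) and in secretion. Several listed genes, among them Apoe, Lgmn, Dab2, Coro1a and Lcp1, are also known from other cell types.

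Reads counted in genes ranged from 45115494 to 84172202 per library. Levels are given as CPM, counts scaled to the library's total in genes. Hoxd13 measured 247 and 246 CPM in wild-type replicates 1 and 2 and 47.7 and 40.0 in mutant replicates 1 and 2, so the genotype labels held for that gene. Hoxa13 measured 48.0 and 39.8 CPM in mutant libraries and 50.8 and 47.2 in wild type. Reads can remain in the rest of a transcript with an insertion, so Hoxa13 checks nothing. The limb mesenchyme genes Prrx1 and Tbx5 were present in every library, at no less than 411 and 67.0 CPM.

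The promoters of the 3 genes that rose in the mutant, F13a1, Lyz2 and Mrc1, are shown because short PU.1-type letters are a feature that the choice of genes did not use. Sequences are from RefSeq on GRCm38.p6, a newer build than the mm9 of the counts, and run from 250 to 51 bases before the annotated start, 5′ to 3′ on the gene's strand. Capitals mark GAGGAA or its reverse complement TTCCTC. F13a1 lies on the minus strand at chr13:37050295-37050494, Lyz2 on the minus strand at chr10:117282323-117282522, and Mrc1 on the plus strand at chr2:14229164-14229363.
F13a1: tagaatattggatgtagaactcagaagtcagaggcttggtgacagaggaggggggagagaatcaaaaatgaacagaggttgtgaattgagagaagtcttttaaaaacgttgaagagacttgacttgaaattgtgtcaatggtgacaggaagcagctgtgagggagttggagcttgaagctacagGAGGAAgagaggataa
Lyz2: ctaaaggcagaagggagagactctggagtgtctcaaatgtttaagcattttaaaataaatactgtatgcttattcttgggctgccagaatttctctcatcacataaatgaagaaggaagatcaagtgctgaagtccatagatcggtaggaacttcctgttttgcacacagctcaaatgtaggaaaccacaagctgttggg
Mrc1: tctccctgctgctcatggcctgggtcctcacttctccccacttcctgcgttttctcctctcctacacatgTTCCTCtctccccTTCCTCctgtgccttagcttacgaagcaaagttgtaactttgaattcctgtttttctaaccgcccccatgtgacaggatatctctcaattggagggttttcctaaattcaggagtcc
In F13a1 the letters begin 66 bases before the start, with a further match beginning at base 18 after it, outside the printed stretch. In Mrc1 they stand on the opposite strand, beginning 180 and 167 bases before the start, with a further match at 35. The Lyz2 window holds none, and it holds the RUNX-type letters TGTGGT on the opposite strand, 66 bases before its start.

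Promoter windows of 300 bases (250 before and 50 after the start) were at hand for 25 of the 31 genes and not for Csf1r, Spi1, Cd14, Emr1, C1qa and Tyrobp. On either strand GAGGAA stood in 16 of the 25, or 64.0%, among them the windows of C1qb, C1qc, Ctss, Cybb, Fcgr3 and Trem2. In all 32851 promoter windows of that length the share was 28.3%. Each of the 25 genes was given a single window, whereas the full set was not reduced to a single window per gene. TGTGGT stood in 7 of the 25 (28.0%, against 16.8% of all windows), and the AP-1 type letters TGANTCA in 3 (12%, against 7.8%). No motif contains another, though matches can overlap by a few bases. These are descriptions of letters in a window.

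The level of these genes in the limb bud covered a wide range. In CPM per kilobase of the longest coding transcript, wild-type E11.5 means were highest for Apoe (23.9), which carries lipids, Lgmn (18.1), a lysosomal protease, Pf4 (15.3), a chemokine of platelets and macrophages, and Coro1a (13.8), an actin regulator of leukocytes. Mrc1, the mannose receptor, had 4.18 and C1qa, a chain of complement C1q, 4.2. Csf1r had 1.88 on the same scale. The lowest were Timd4 (0.0255), a receptor for phosphatidylserine on dying cells, Ms4a7 (0.122), a membrane protein of macrophages, and Folr2 (0.259), a folate receptor. In CPM, 22 of the 31 stayed below 10 in every library, and 5 exceeded 10 in all of them.

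**Figure D1:**
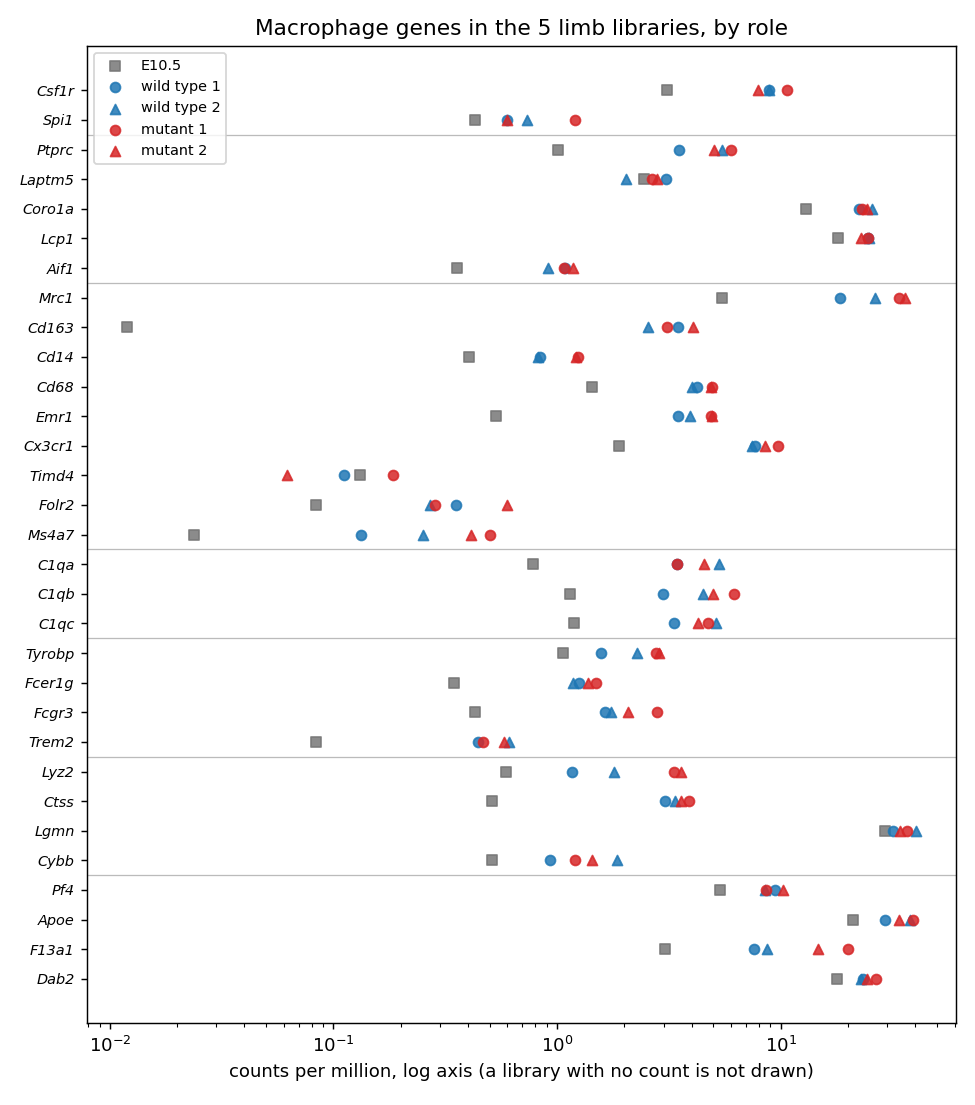
Level of each of the 31 macrophage genes (rows, grouped by role) in CPM on a log axis; gray squares are the E10.5 library, blue symbols the 2 wild-type and red symbols the 2 mutant E11.5 libraries. The gray square is the lowest point for 29 of the 31 genes, and the red symbols of F13a1, Lyz2 and Mrc1 lie to the right of the blue ones.

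The first comparison asked which macrophage genes differed between mutant and wild-type distal limb at E11.5. F13a1, Lyz2 and Mrc1 rose in the mutant, and the genes that define the lineage, Csf1r, Spi1 and the C1q chains, did not pass the test. Of the 30 genes tested, 3 rose and 0 fell at an adjusted p below 0.05 (edgeR quasi-likelihood test, Benjamini-Hochberg over all 16166 genes tested). Across all genes 3.82% rose and 3.34% fell, 7.16% in all. At an unadjusted p below 0.05, 5 of the 30 were higher and 0 lower, where 9.79% of all genes tested were higher and 9.58% lower. DESeq2 also called 3 risen and 0 fallen, where it called 3.92% of all genes with an adjusted p risen and 3.50% fallen. In RNA of mixed tissue, a change in the number of cells of a type and a change in RNA per cell cannot be told apart.

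F13a1 encodes the A subunit of coagulation factor XIII, a transglutaminase that cross-links fibrin and is made by tissue macrophages and monocytes. Its level was 19.9 and 14.7 CPM in mutant replicates 1 and 2 and 7.58 and 8.69 CPM in wild-type replicates 1 and 2. Both mutant libraries lay above both wild-type libraries. The mean was 17.3 ± 3.70 CPM in mutant libraries and 8.13 ± 0.781 in wild type (SD, n = 2). Its log2 fold change was 1.07, with an SE of 0.17 and an adjusted p of 0.00182 (edgeR). Across the other fits its log2 fold change ranged from 0.83 to 1.28 and its adjusted p from 5.38e-09 to 0.0081.

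Lyz2 encodes lysozyme M, the enzyme of macrophages that digests bacterial cell walls. It measured 3.33 and 3.60 CPM in the mutant pools and 1.17 and 1.79 in the wild-type pools, which did not overlap. The log2 fold change was 1.19 (SE 0.27, adjusted p = 0.0178 by edgeR). Leaving out wild-type replicate 1 gave 0.91, and leaving out replicate 2 gave 1.57. Of the stretches of 50 bases in the Lyz2 transcript, 15.4% also occur in Lyz1, the neighbouring lysozyme gene, so reads of the pair could be set aside or assigned to either. Lyz1 counts were 0.635 and 0.559 CPM in mutant libraries and 0.377 and 0.376 in wild type, with a log2 fold change of 0.65 and an adjusted p of 0.446 (edgeR).

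Mrc1 encodes CD206, the mannose receptor that takes up glycoproteins. It measured 33.9 and 36.1 CPM in mutant libraries and 18.5 and 26.4 in wild type. The libraries did not overlap, and the wild-type pair was spread more widely than the mutant pair. The log2 fold change was 0.62 (SE 0.15, adjusted p = 0.0306 by edgeR). Leaving out wild-type replicate 1 gave 0.36 and leaving out replicate 2 gave 0.93, and the adjusted p was 0.0514 when libraries were scaled by total counts alone.

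**Figure D2:**
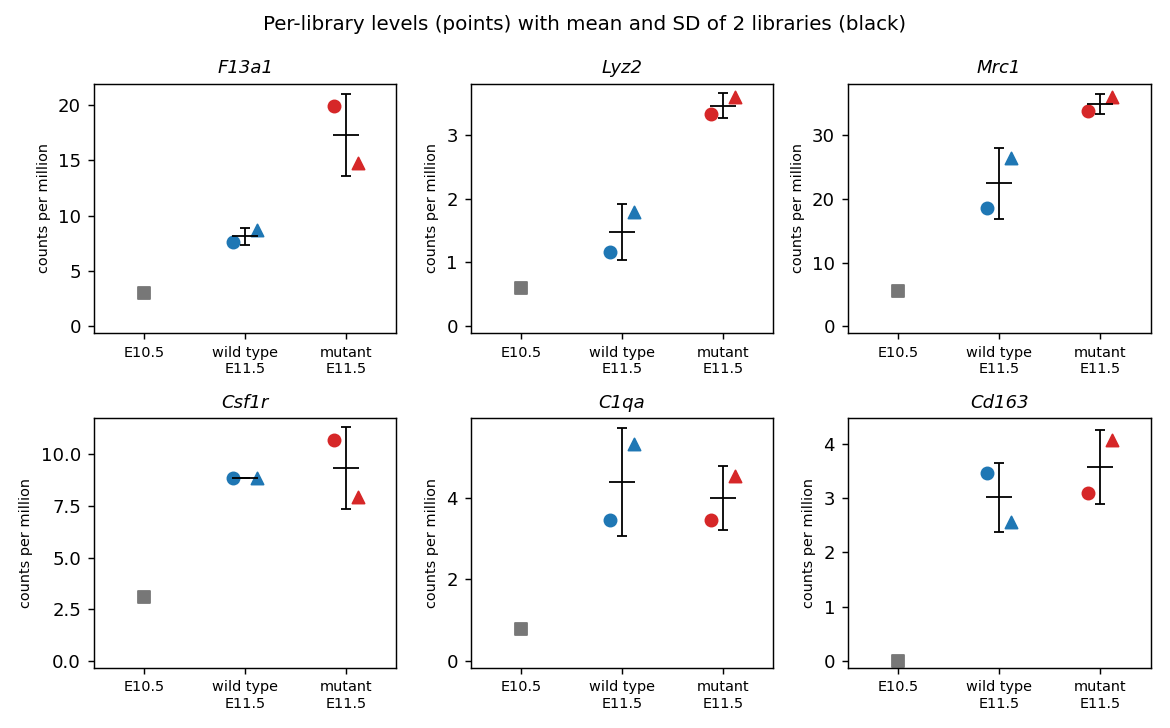
CPM of 6 macrophage genes in each library (gray square E10.5, blue wild type, red mutant; circle replicate 1, triangle replicate 2), with black bars for the mean and SD of 2 libraries. F13a1, Lyz2 and Mrc1 show mutant points above wild-type points, whereas the points of Csf1r, C1qa and Cd163 overlap between the genotypes, and Cd163 is close to 0 at E10.5.

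The lineage factors showed no such separation. Csf1r, the receptor that macrophages need to survive, measured 10.7 and 7.93 CPM in mutant libraries and 8.87 and 8.85 in wild type. The mutant libraries lay on either side of the wild-type pair, and the log2 fold change was 0.07 (SE 0.17, adjusted p = 0.895 by edgeR). Of its 50-base stretches 17.7% also occur, on either strand, in transcripts of the gene Hmgxb3, and how far this affects its count was not tested. Spi1 measured 1.20 and 0.600 CPM in mutant libraries and 0.598 and 0.734 in wild type, with a log2 fold change of 0.43 and an SE of 0.41, too wide to place it on either side of 0.

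Set against Csf1r within each library, which removes any effect of library scaling, F13a1 stood apart by genotype. There were 1.85 F13a1 counts per Csf1r count in both mutant libraries, 0.855 and 0.982 in the wild-type libraries, and 0.988 at E10.5. The ratio of Lyz2 to Csf1r was 0.309 and 0.454 in the mutant and 0.133 and 0.202 in wild type, again without overlap. That of Mrc1 to Csf1r was 3.15 and 4.56 against 2.09 and 2.98. The ratios of Cd163 (0.288 and 0.512 in the mutant, 0.390 and 0.289 in wild type) and of C1qa (0.320 and 0.572 against 0.388 and 0.599) overlapped between the genotypes. Csf1r was chosen as the denominator after values were seen, and these ratios carry no test. They use the counts already tested above, so they are no separate support for the differences. The share of all genes with ratios that do not overlap was not counted.

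Among the 9 surface and scavenger receptors, Mrc1 was the 1 that rose, and 8 were tested. Cd163, the receptor for haemoglobin bound to haptoglobin, measured 3.09 and 4.06 CPM in mutant libraries and 3.46 and 2.56 in wild type, and the genotypes overlapped (log2 fold change 0.24, SE 0.23). Emr1 encodes an adhesion receptor used as the standard macrophage marker in mice. It measured 4.88 and 4.95 CPM in mutant libraries and 3.48 and 3.92 in wild type, a log2 fold change of 0.39 with an adjusted p of 0.292 (edgeR). Cx3cr1, the fractalkine receptor, measured 9.74 and 8.55 against 7.67 and 7.47 CPM, with 0.26 and an adjusted p of 0.385 (edgeR). Cd14, the co-receptor for bacterial lipopolysaccharide, measured 1.24 and 1.22 against 0.842 and 0.824 CPM (0.55, adjusted p = 0.379 by edgeR). Cd68, a membrane glycoprotein of late endosomes, measured 4.95 and 4.89 against 4.21 and 4.01 CPM (0.24, adjusted p = 0.533 by edgeR). In each of these last 4 the mutant pair lay above the wild-type pair, as it did for 24.7% of all genes tested, and none passed the test.

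The other receptors, Ms4a7, Folr2 and Timd4, had few counts. Ms4a7 measured 0.501 and 0.414 CPM in mutant libraries and 0.133 and 0.251 in wild type, with a log2 fold change of 1.20, an SE of 0.52 and an adjusted p of 0.223 (edgeR). Folr2 measured 0.284 and 0.600 CPM in mutant libraries and 0.355 and 0.269 in wild type, which overlapped. Of its 50-base stretches 56.7% also occur in transcripts of another annotated gene, and its value is uncertain. Timd4 had 11 and 3 counts in the mutant, 5 and 0 in wild type and 11 at E10.5, and it was too low to be tested. The count of 0 allows up to 0.0537 CPM in that library, from counting error only.

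The complement and Fc receptor genes had no member that passed the test. C1qa, C1qb and C1qc encode the chains of C1q, which binds antibodies and dying cells. C1qb measured 6.20 and 4.97 CPM in mutant libraries and 2.99 and 4.51 in wild type, with a log2 fold change of 0.55 and an adjusted p of 0.213 (edgeR). C1qa measured 3.44 and 4.53 against 3.44 and 5.30 CPM (-0.16), and C1qc 4.73 and 4.29 against 3.35 and 5.12 CPM (0.07). Wild-type replicate 1 was the lowest, or tied lowest, library of E11.5 for these chains, and C1qb passed the test without wild-type replicate 2 (0.92, adjusted p = 0.0142 by edgeR). Tyrobp and Fcer1g encode adaptors with an activation motif that signal for many myeloid receptors. Tyrobp measured 2.76 and 2.86 CPM in mutant libraries and 1.57 and 2.27 in wild type (0.52, adjusted p = 0.303 by edgeR), and Fcer1g 1.49 and 1.37 against 1.26 and 1.18 CPM (0.21). Fcgr3, a low-affinity antibody receptor, measured 2.81 and 2.07 against 1.64 and 1.75 CPM (0.51, adjusted p = 0.314 by edgeR), and 12.8% of its 50-base stretches also occur in Fcgr2b. Trem2, a lipid receptor that pairs with the Tyrobp protein, measured 0.468 and 0.580 against 0.443 and 0.609 CPM (-0.04).

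None of the remaining genes passed the test, and the mutant pair lay above the wild-type pair only for Ctss and Dab2 among them. Ptprc, the pan-leukocyte phosphatase CD45, measured 5.97 and 5.05 CPM in mutant libraries and 3.50 and 5.46 in wild type (log2 fold change 0.27). Ctss, a lysosomal cathepsin, measured 3.91 and 3.60 against 3.04 and 3.38 CPM (0.21), and Cybb, the catalytic subunit of the phagocyte oxidase, 1.20 and 1.43 against 0.931 and 1.86 CPM (-0.13). Aif1, an actin-binding protein of macrophages, had 0.16 and Laptm5, a lysosomal membrane protein of leukocytes, 0.09. The more abundant genes also known from other cells were held within narrow limits. Their log2 fold changes were -0.05 for Lgmn, 0.10 for Apoe, -0.07 for Lcp1 (L-plastin), -0.04 for Coro1a and 0.14 for Dab2, an endocytic adaptor, with SE of 0.11 to 0.14. Of the 50-base stretches of Lcp1, 14.4% also occur in other annotated genes. Pf4 had 0.05 with an SE of 0.15. Leaving out 1 library turned the sign of several of these values that are close to 0.

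**Figure D3:**
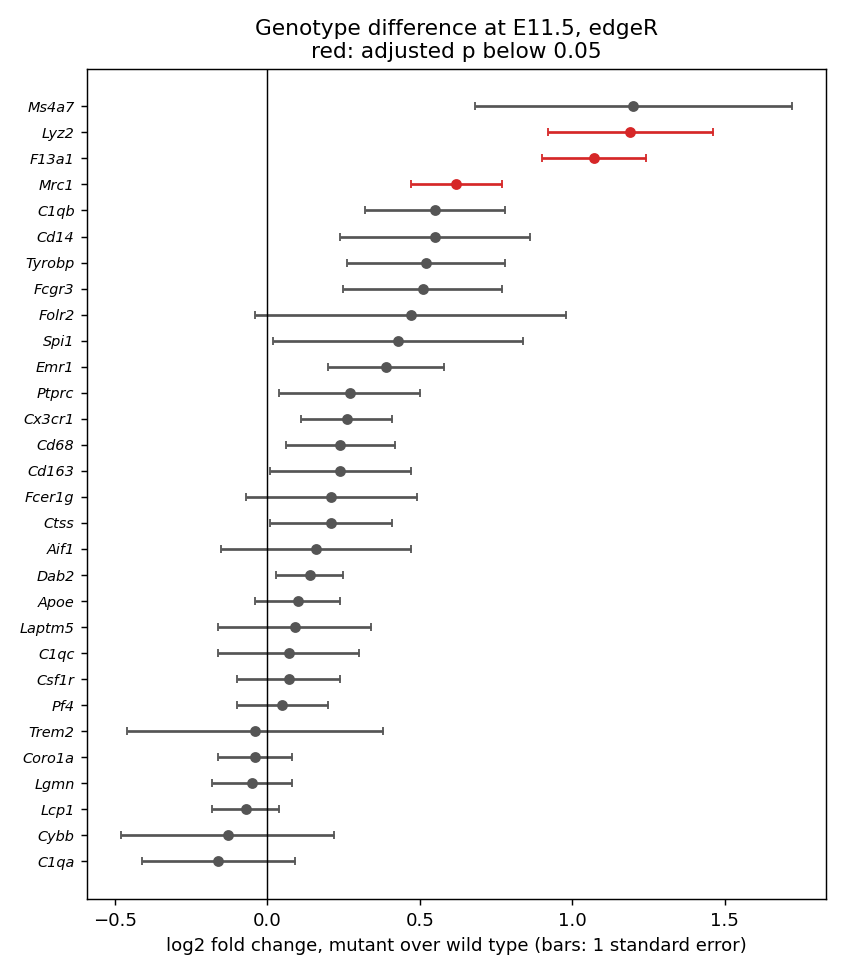
Log2 fold change of mutant over wild type for the 30 tested macrophage genes (points, 2 libraries per genotype) with bars of 1 standard error. Red marks F13a1, Lyz2 and Mrc1, the 3 with an adjusted p below 0.05, and 24 of the 30 points lie above 0.

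Over all tested genes, those that passed the threshold included, the direction was mostly upward. Of the 30 tested genes, 24 had a log2 fold change above 0 and 6 below, with a median of 0.22 beside -0.0008 for all genes tested. Both mutant libraries lay above both wild-type libraries for 14 of them, where 24.7% of all genes did so, and below for 0, where 24.2% of all genes did so. The level also differed within a genotype. Wild-type replicate 2 exceeded wild-type replicate 1 in 23 of the 30 (76.7%, against 52.8% of all genes tested), with a median log2 difference of 0.23 between them. Between the mutant libraries the median difference was -0.07. The median difference between the genotypes was therefore no larger than that between the 2 wild-type pools. Summed over all 31 genes, the level was 289.5 and 271.9 CPM in the mutant libraries, 224.4 and 260.2 in wild type and 131.6 at E10.5. Much of this sum came from Apoe, Lgmn, Dab2, Coro1a and Lcp1, which are also known from other cell types. At E10.5, for example, Lgmn had 29.3 CPM and Apoe 21.0.

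The second comparison set the E10.5 bud beside wild-type distal limb at E11.5. Most macrophage genes were lower at E10.5, by at least 2-fold for 18 of them. With 1 library at E10.5 there is no test. A gene was called lower when its log2 CPM was at least 2-fold below each wild-type library. Of 30 genes compared, 18 were lower and 0 higher, where 12.8% of all genes were lower and 3.86% higher. The median difference was -1.28 on the log2 scale, beside -0.02 for all genes. With total-count scaling both medians moved down by a similar amount, to -1.51 and -0.25. In CPM, E10.5 was the lowest of the 5 libraries for 29 of the 31 genes, where this held for 49.8% of all genes with a count. The exceptions were Laptm5 and Timd4.

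Cd163 showed the widest gap. It had 1 count at E10.5 (0.0119 CPM) and 299 counts in the 2 wild-type libraries, which is 249.3 times as many per read counted (exact 95% interval 44.4 to 9878.8, counting error only). All 4 E11.5 libraries lay between 2.56 and 4.06 CPM. The other surface receptors compared were lower by smaller factors. Emr1 measured 0.535 CPM at E10.5 against 3.48 and 3.92 (log2 difference -2.49), Cx3cr1 1.90 against 7.67 and 7.47 (-1.75), and Mrc1 5.49 against 18.5 and 26.4 (-1.77). Ms4a7 had 2 counts at E10.5 and 20 in wild type, 8.34 times as many (exact 95% interval 2.03 to 73.6). Of the 9 surface receptors 7 were called lower, with Cd14 (-0.77) not called and Timd4 not compared.

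The C1q chains were low together at E10.5, with log2 differences of -2.17 for C1qa, -1.43 for C1qb and -1.55 for C1qc. C1qa measured 0.784 CPM at E10.5 against 3.44 and 5.30 in wild type, C1qb 1.14 against 2.99 and 4.51, and C1qc 1.19 against 3.35 and 5.12. Of the activation adaptors and their receptors 3 of 4 were called lower, namely Trem2 (-2.07), Fcgr3 (-1.69) and Fcer1g (-1.52). Tyrobp was not, at 1.06 CPM against 1.57 and 2.27 (-0.60). Ctss, at 0.511 CPM against 3.04 and 3.38, differed by -2.35. Ptprc measured 1.01 CPM at E10.5 against 3.50 and 5.46 (-1.85).

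Of the lineage factors, Csf1r measured 3.09 CPM at E10.5 and 8.87 and 8.85 in wild type (-1.28), a call of lower. Spi1 measured 0.428 against 0.598 and 0.734 CPM (-0.38) and was not called. F13a1, at 3.05 CPM against 7.58 and 8.69, differed by -1.17, close to the difference of Csf1r. Lyz2 had 0.594 CPM against 1.17 and 1.79 (-1.02) and Cybb 0.511 against 0.931 and 1.86 (-1.09). Both missed the call because of wild-type replicate 1, and both were called without it (-1.34 and -1.61). Nearest to 0 were Lgmn (-0.06), Dab2 (-0.14), Laptm5 (0.19) and Lcp1 (-0.23), followed by Apoe (-0.43), Pf4 (-0.51) and Coro1a (-0.66).

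**Figure D4:**
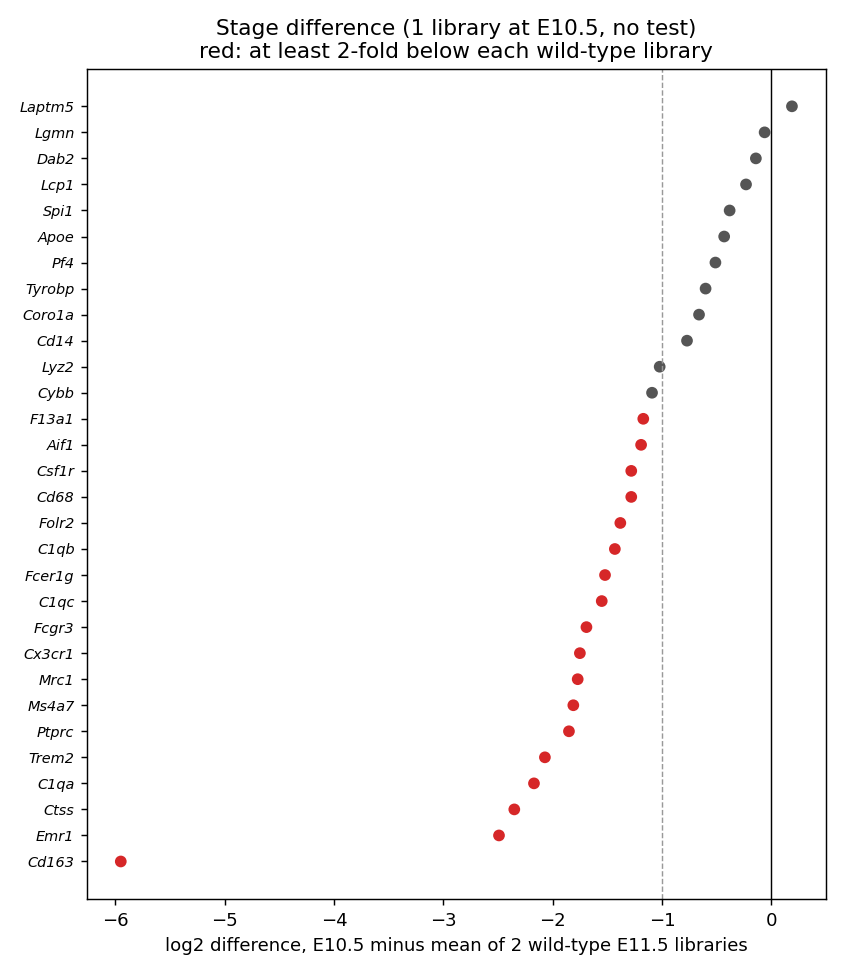
Log2 difference between the E10.5 library and the mean of the 2 wild-type E11.5 libraries for 30 macrophage genes, with the dashed line at 2-fold lower. Red marks the 18 genes at least 2-fold below each wild-type library; Cd163 lies farthest left, and Laptm5 is the 1 point above 0.

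The 2 comparisons share the wild-type libraries, so their values are given side by side only. F13a1 had 1.07 by genotype and -1.17 by stage, Mrc1 0.62 and -1.77, and Lyz2 1.19 and -1.02. Cd163, with the widest stage gap, had 0.24 by genotype, and Emr1, the next widest, 0.39.

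Wider myeloid lists were counted beside these genes, without a set test. Their counts stand beside 3.82% of all genes risen and 3.34% fallen, and beside 9.79% higher and 9.58% lower at an unadjusted p below 0.05. The stability of a call is given as the number of alternative fits in which it ended. In Fc receptor and integrin signalling 1 of 16 tested genes rose and 0 fell, with a median log2 fold change of -0.04. At an unadjusted p below 0.05 these were 3 and 1, and DESeq2 called 0 risen and 1 fallen. The gene that rose was Itgam, the integrin CD11b of monocytes, macrophages and granulocytes. It measured 1.67 and 1.84 CPM in mutant libraries and 0.887 and 0.734 in wild type (1.10, SE 0.30, adjusted p = 0.0458 by edgeR). The call ended in 7 of 11 alternative fits, among them DESeq2 (0.096), the replicate block (0.0732), total-count scaling (0.0621) and the fits without either mutant library (0.121 and 0.211) or wild-type replicate 2 (0.104). Among growth factors and receptors of the lineage 2 of 11 rose and 1 fell (median 0.17). Csf1, the ligand of the Csf1r protein, measured 8.82 and 9.50 CPM in mutant libraries and 5.98 and 5.46 in wild type (0.67, SE 0.15, adjusted p = 0.0219 by edgeR), with 0.0625 and 0.145 without mutant replicate 1 and 2. The others were Flt3, a cytokine receptor of progenitors, which rose (2.20), and Kit, the stem cell factor receptor, which fell (-1.03). In this list 4 were higher and 1 lower at an unadjusted p below 0.05, and DESeq2 called 1 risen and 1 fallen. Flt3 had 40 and 26 counts in the mutant libraries, 5 and 8 in wild type and 0 at E10.5. It passed the filter on low counts only through the mutant libraries. The call of Flt3 ended in 4 of 11 alternative fits, with DESeq2 (adjusted p = 0.0787) and without mutant replicate 1 (0.141) or either wild-type library (0.0691 and 0.056).

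For the engulfment of dying cells 3 of 17 genes rose and 0 fell, with a median of 0.19. At an unadjusted p below 0.05, 7 were higher and 1 lower, and DESeq2 called 3 and 0. Mertk, a receptor that recognises dying cells, rose from 57.1 and 59.4 CPM in wild type to 95 and 87.9 in the mutant (0.64, SE 0.09, adjusted p = 0.00117 by edgeR). The others were Itgav, an integrin chain (0.53), and Pros1, a bridging ligand of Mertk (0.38), whose call ended without either mutant library (0.134 and 0.202) or wild-type replicate 2 (0.0518). In lysosomal genes 1 of 20 rose (Hexa, 0.38) and 1 fell (Ctsc, -0.93), with a median of 0.01. Hexa, at an adjusted p of 0.0497 (edgeR), lost its call in 5 of 11 alternative fits, among them those without mutant replicate 1 (0.239), mutant replicate 2 (0.143) or wild-type replicate 1 (0.101). In the oxidase and innate sensing list 0 of 13 rose and 0 fell (edgeR; 0 and 2 at an unadjusted p below 0.05; 0 and 0 by DESeq2). Of myeloid transcription factors 0 of 14 rose and 2 fell, Id3 (-0.60) and Myb (-0.45), with 1 and 3 at an unadjusted p below 0.05 and 0 and 2 by DESeq2. Myb, at an adjusted p of 0.0485 (edgeR), lost its call in 5 of 11 alternative fits, among them those without mutant replicate 1 (0.069), mutant replicate 2 (0.424) or wild-type replicate 2 (0.0608). In chemokines and receptors 1 of 15 rose and 0 fell, namely Cxcl12 (1.60), a chemokine also made by connective tissue; 1 and 2 had an unadjusted p below 0.05, and DESeq2 called 1 and 1. In antigen presentation 2 of 10 rose (H2-Ab1 and Cd80) and 2 fell, of which H2-D1 (-0.66) had the smaller adjusted p. DESeq2 called 1 and 2. H2-Ab1 and Cd80 passed the filter on low counts only through the mutant libraries, where they were high. A gene as low in both genotypes as these were in wild type was not tested. The class II gene H2-Ab1 had 78 and 40 counts in the mutant libraries and 0 and 3 in the wild-type ones, 36.7 times as many per read counted (exact 95% interval 12.3 to 180.6, for counting error only and not the spread between pools). Its fitted log2 fold change was 5.06, which became 4.22 when wild-type replicate 1 was left out and 8.79 when replicate 2, which held all 3 wild-type counts, was left out. The E10.5 library, with the strain label CD1, held 12 H2-Ab1 counts (0.143 CPM), above both wild-type libraries of E11.5 (0 and 0.0537 CPM). Cd80 had 16 and 17 counts in the mutant libraries, 2 and 1 in wild type and 5 at E10.5. Its call ended in 3 of the 10 alternative fits that gave an adjusted p, without mutant replicate 2 (0.136) or either wild-type library (0.0567 and 0.151), and DESeq2 gave none. H2-D1 lost its call without either mutant library (0.0856 and 0.0551).

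At E10.5, where 12.8% of all genes were called lower than wild type and 3.86% higher, the oxidase and sensing list had 7 of 13 lower and 0 higher, with a median log2 difference of -1.35. The chemokine list had 9 of 15 lower and 1 higher (median -1.76), and the Fc receptor and integrin list 7 of 16 lower and 1 higher (-0.39). Of the myeloid transcription factors 4 of 14 were lower and 1 higher (-0.40). The lysosomal list, whose genes are active in most cells, had 1 of 20 lower and 0 higher (-0.07). For the engulfment list these were 1 of 17 lower and 1 higher (-0.36), for the growth factors and receptors 1 of 10 and 1 (-0.32), and for antigen presentation 1 of 8 and 0 (-0.77).

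Markers of granulocytes, mast cells and lymphocytes were low, and erythroid genes were abundant. The summed level of 9 neutrophil genes was 5.77 and 4.16 CPM in the mutant libraries, 2.68 and 4.12 in wild type and 2.41 at E10.5, with Ctsg at 0 in all 5 libraries. Of 6 mast cell genes 3 were at 0 in all 5 libraries, and their sum lay between 0.555 and 0.798 CPM at E11.5. The T cell gene Cd3e and the B cell gene Ms4a1 were also at 0 throughout, and the 9 lymphocyte genes summed to 5.08 and 4.80 CPM in the mutant libraries, 4.10 and 4.44 in wild type and 3.45 at E10.5. None of the tested genes of these 3 lists passed the test (edgeR and DESeq2, and 0 at an unadjusted p below 0.05). For the 8 megakaryocyte and platelet genes the sum was 17.8 and 18.3 CPM in the mutant libraries, 24.0 and 19.9 in wild type and 9.20 at E10.5. Of them 2 fell and 0 rose, the platelet chemokine Ppbp (-0.80) and the collagen receptor Gp6 (-1.71). Without 1 library the calls ended for Ppbp (0.133 without mutant replicate 1) and for Gp6 (0.111 without mutant replicate 2, 0.082 without wild-type replicate 1), and DESeq2 gave Gp6 0.0505. Pf4, made by both lineages, had 0.05. Erythroid genes summed to 3081.7 and 3032.8 CPM in the mutant libraries, 2457.1 and 2363.8 in wild type and 3475.7 at E10.5, and 1 of 10 rose, the embryonic globin Hbb-bh1. At an unadjusted p below 0.05, 8 of these 10 were higher and 0 lower, and DESeq2 called 2 risen. Endothelial genes summed to 294.8 and 271.8 CPM in the mutant libraries, 253.0 and 254.0 in wild type and 306.8 at E10.5, with 0 of 11 risen or fallen (edgeR; 2 higher and 0 lower at an unadjusted p below 0.05; 0 by DESeq2). The summed erythroid, endothelial, lymphocyte and neutrophil levels were thus higher in both mutant than in both wild-type libraries, as were F13a1, Lyz2 and Mrc1. Among all single genes tested, 24.7% were higher in both mutant libraries and 24.2% lower. For the neutrophil list the nearest values were 4.16 and 4.12 CPM. The megakaryocyte and platelet sum went the other way, lower in both mutant libraries. Mast cell sums overlapped, at 0.585 and 0.766 CPM in the mutant libraries and 0.798 and 0.555 in wild type. Lyz2 is also known from neutrophils. At E10.5 the erythroid and endothelial sums exceeded those of wild type, whereas the macrophage, lymphocyte and neutrophil sums lay below them. Of 8 limb mesenchyme genes 1 rose (Prrx1) and 4 fell, with Msx1 and Twist1 at the smallest adjusted p, and of 8 surface ectoderm genes 2 fell (Krt8 and Krt14). The calls of Twist1, Krt8 and Krt14 ended in 1, 2 and 3 of 11 alternative fits. The part of these cell types in the macrophage results was not tested.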

How the data were processed

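Per the submitters' processing notes, reads were aligned to mm9 with TopHat2 2.0.13 and counted with HTSeq, and Cufflinks 2.1.1 and SAMtools were also used. For the strand setting and the annotation no value is given in the sources used here. Libraries were Ribo-Zero depleted and strand-specific, per the labels' protocols. The deposited values were whole-number counts per gene symbol, made by the authors. The 5 HTSeq total lines were left out; reads assigned to no feature made up 24.3% to 39.6% of each table.

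CPM are counts scaled to the library's total in genes. For mutant against wild type, the 4 E11.5 libraries were filtered (filterByExpr, minimum count 10, total 15), scaled by TMM and fitted with edgeR 4.0.16 (R 4.3.3), whose quasi-likelihood test was used with genotype as the only term. DESeq2 1.42.0 was an alternative. The tests were checked on simulated data. Log2 fold changes are mutant over wild type. Their SE was derived from the edgeR test, as the absolute log2 fold change divided by the square root of the F statistic. A replicate is 1 pool, so p-values measure the spread between pools. E10.5 was compared with wild type without a test, on log2 CPM after TMM scaling (prior count 2). Transcript lengths and shared 50-base stretches, matched on either strand, came from GENCODE M21, and promoters from RefSeq (GRCm38.p6). The members and lists were chosen with earlier results of these data known. All 31 members are given. From other lists, genes are named when their adjusted p is below 0.05 (at most the 3 smallest per list), as are relatives that can share reads, the targeted genes and defining markers of other cells.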

Additional observations from a re-analysis of the deposited data

How the results depend on the processing

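The 11 alternatives gave 2 to 4 risen and 0 fallen macrophage genes, and their median log2 fold change stayed between 0.15 and 0.31. F13a1 and Lyz2 passed in each, and Mrc1 in each except total-count scaling (adjusted p = 0.0514). C1qb passed only without wild-type replicate 2 (0.0142). Values of 13 genes that did not pass changed sign when 1 library was left out, with log2 fold changes of -0.18 to 0.27 for Csf1r, -0.18 to 0.83 for Spi1, -0.03 to 0.67 for Ptprc, -0.16 to 0.38 for Laptm5, -0.16 to 0.09 for Coro1a, -0.13 to 0.93 for Folr2, -0.46 to 0.22 for C1qa, -0.22 to 0.45 for C1qc, -0.27 to 0.25 for Trem2, -0.23 to 0.16 for Lgmn, -0.55 to 0.51 for Cybb, -0.07 to 0.17 for Pf4 and -0.09 to 0.33 for Apoe. The number of genes called in the other lists was 26, 17 to 29 when 1 library was left out and 38 with no filter on low counts. Same-numbered libraries did not deviate together (correlation -0.08 over genes), so the numbers were not taken to pair the samples; with the replicate block 3 genes rose, with a median of 0.22. At E10.5, 18 genes were lower under each scaling, prior count and filter, and 20 or 17 without wild-type replicate 1 or 2. Without replicate 2, Ms4a7 was too low to be compared. Prior count moved Cd163 to -7.04 from -5.95. The newer quasi-likelihood estimate was added after the data were seen and gave 3 risen genes. Precision was limited by the 2 pools per genotype and by low counts: the SE of the log2 fold change was 0.52 for Ms4a7, 0.51 for Folr2, 0.42 for Trem2 and 0.41 for Spi1.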
